A study of Homo sapiens with 6 samples.

Results

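Class I peptide processing was followed through 10 genes of the deposited expression table: the transporter genes TAP1 and TAP2, the loading gene TAPBP, the immunoproteasome genes PSMB8, PSMB9 and PSMB10, the proteasome activator genes PSME1 and PSME2, and the trimming aminopeptidase genes ERAP1 and ERAP2. They were chosen by gene symbol, and all 10 were among the 17891 genes of the table and among the 14076 that passed the filter on low counts. RNA of T47D, an established human line of luminal breast cancer with the prolactin receptor, had been sequenced in 6 libraries. In the PRL group (3 libraries) the cells carried a puromycin-selectable pLVX lentivirus with PRL, the prolactin gene. In the PLVX group (3 libraries) they carried the empty lentivirus, and both groups had grown for 2 days in RPMI1640 with serum. The series calls the libraries of a group biological replicates, and whether they came from separate transductions is not given in the sources used here, so p-values measure the spread between these libraries.

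Cells show fragments of their own proteins on class I HLA molecules. The proteasome cuts the proteins, TAP carries the peptides into the endoplasmic reticulum, tapasin holds an empty class I molecule beside TAP, and ERAP aminopeptidases trim peptides that are too long. Interferons are known to raise many of these genes and to exchange the catalytic subunits of the proteasome for immuno subunits, which favour cuts that leave class I ligands.

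Libraries held 16211146 to 17402348 estimated counts, and 1 count stood for 0.0551 to 0.0678 CPM (counts relative to library size), scaled with TMM, a trimmed mean of log ratios. PRL had 8277, 8097 and 7789 counts in PRL libraries, against 3, 3 and 1 in PLVX libraries, as the labels say. All 9 luminal markers examined were present, with a summed level of 17369 to 17594 TPM (transcripts relative to all transcripts, adjusted for gene length) in PRL libraries and 17692 to 19325 TPM in PLVX libraries. Most of that sum was KRT8, KRT18 and KRT19. In the edgeR test described below, 4 of the 9 were higher and 4 lower in the PRL group, these keratin genes among the lower. Of all genes tested 32.4% were higher and 30.5% lower. Spread was wider in the PLVX group. Log2 CPM of PLVX replicate 3 had correlations of 0.944 to 0.945 with those of the PRL group, and PLVX replicates 1 and 2 had 0.926 to 0.931. Ribosomal protein genes took 10.0% to 10.6% of counts in PRL libraries and 15.5% to 18.6% in PLVX libraries.

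The members lie in 5 places of the genome (GENCODE 29, GRCh38). TAP2 (chromosome 6, 32821833 to 32838780), PSMB8 (32840717 to 32844703), TAP1 (32845209 to 32853978) and PSMB9 (32844136 to 32859585) stand together in the class II region of the HLA complex, with TAP2, PSMB8 and TAP1 on the minus strand and PSMB9 on the plus strand. TAPBP (chromosome 6, 33299694 to 33314387) lies 445.7 kb beyond the end of TAP1. PSME1 (chromosome 14, 24136158 to 24138967) and PSME2 (24143362 to 24147570) are 4.4 kb apart, ERAP1 (chromosome 5, 96760810 to 96808100) and ERAP2 (96875939 to 96919716) are 67.8 kb apart, and PSMB10 lies on chromosome 16 from 67934502 to 67937087. The table lists them under the NCBI gene IDs 6890 (TAP1), 6891 (TAP2), 6892 (TAPBP), 5696 (PSMB8), 5698 (PSMB9), 5699 (PSMB10), 5720 (PSME1), 5721 (PSME2), 51752 (ERAP1) and 64167 (ERAP2).

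Promoters of 9 members hold a short sequence known from interferon-regulated genes, shown here so that it can be set beside the values. RefSeq promoter windows (GRCh38.p14, 250 bases before to 50 after an annotated start) were found for all 10 members, 14 windows in all, and were searched on both strands for the core of the interferon-stimulated response element, here GAAA, any 2 bases and GAAA again. That core, the common part of sites to which interferon regulatory factors are known to bind, was present in a window of 9 of 10 members. It was present in 4.38% of all 27305 genes with windows and in 3.57% of all 35116 windows. The stretches around the matches follow, 5′ to 3′ on the strand of the gene. Capitals mark the core or its reverse complement (overlapping matches run together) and, as the second stretch of capitals in TAP1, an NF-kB site.
TAP1, chr6:32853752-32853853, minus strand: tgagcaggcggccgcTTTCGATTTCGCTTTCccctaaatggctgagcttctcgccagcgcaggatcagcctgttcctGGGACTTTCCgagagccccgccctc
TAP2, chr6:32838773-32838812, minus strand: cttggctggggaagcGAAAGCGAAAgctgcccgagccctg
TAPBP, chr6:33314068-33314113, minus strand: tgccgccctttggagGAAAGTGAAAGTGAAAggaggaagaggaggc
PSMB8, chr6:32844027-32844066, minus strand: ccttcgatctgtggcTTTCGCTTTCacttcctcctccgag
PSMB10, chr16:67936847-67936886, minus strand: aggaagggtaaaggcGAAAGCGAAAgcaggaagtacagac
PSME1, chr14:24136184-24136223, plus strand: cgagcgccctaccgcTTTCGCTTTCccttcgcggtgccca
PSME2, chr14:24146614-24146653, minus strand: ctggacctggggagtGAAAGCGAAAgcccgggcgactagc
ERAP1, chr5:96807919-96807958, minus strand: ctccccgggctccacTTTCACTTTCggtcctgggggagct
ERAP2, chr5:96876455-96876494, plus strand: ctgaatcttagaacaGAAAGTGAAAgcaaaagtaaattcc

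In TAP2, PSMB10 and PSME2 the capitals read GAAAGCGAAA, and in PSMB8 and PSME1 they read its reverse complement, TTTCGCTTTC, which also forms the second of the overlapping matches in TAP1. The match did not follow the calls gene by gene: TAPBP and PSMB10 hold the core and did not pass the test described below, while the window of PSMB9, which rose, held no match. The PSMB9 start at base 32854192 lies 488 bases from the TAP1 start at 32853704, on the opposite strand, and the TAP1 match lies between them, 354 bases from the PSMB9 start. The exact letters of the NF-kB site in TAP1 occur in 0.227% of genes with windows. The gamma-activated sequence TTCNNNGAA, the kind of site STAT dimers are known to bind, was found in windows of TAP1 and PSMB8 and in 9.38% of all genes with windows. A match is a string of letters and was not tested as a binding site. Among the 11404 tested genes with a window, 450 held the response element core, and 48.0% of these were higher and 24.2% lower in the PRL group. Of the tested genes with the gamma-activated sequence 33.4% were higher and 29.8% lower, and of the 30 with the NF-kB letters 56.7% were higher and 23.3% lower. Higher calls made up 32.1% of all tested genes with a window. Lower calls made up 30.5% of all tested genes, with or without a window.

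**Figure D1:**
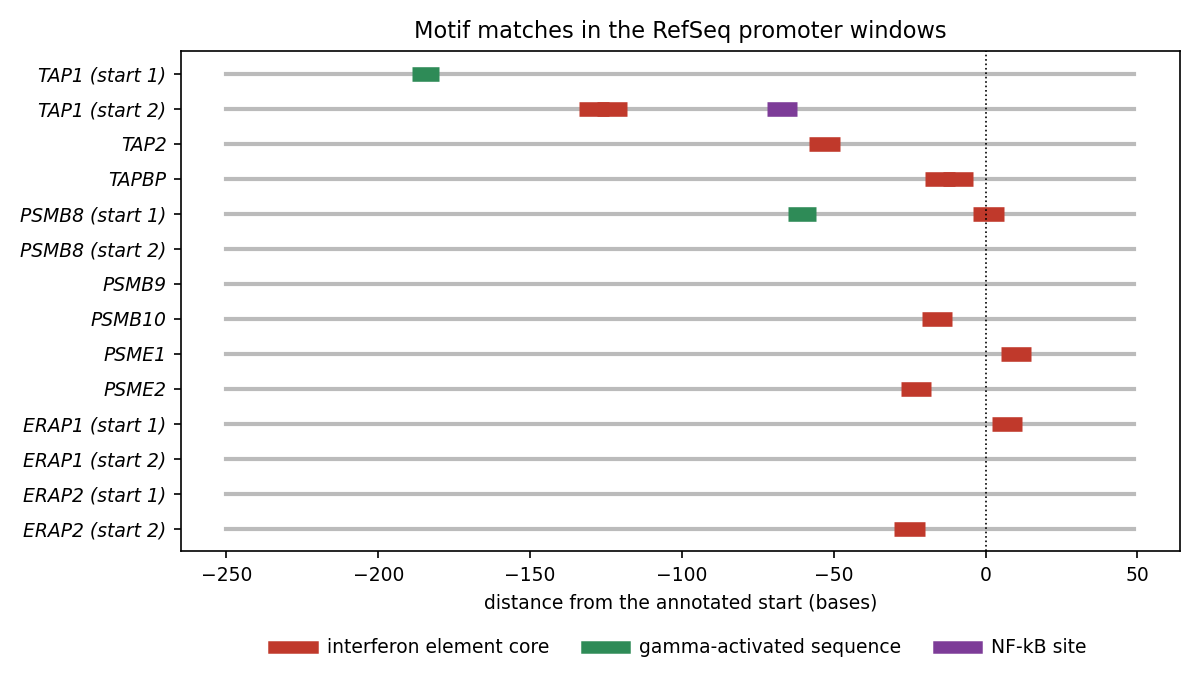
Positions of motif matches in the 14 RefSeq promoter windows of the 10 members, in bases from the annotated start (dotted line, the first transcribed base as 0, negative values before it); where a gene has more than 1 window, starts are numbered by genome position. The interferon element core (red) is present in a window of 9 genes, and is absent from the PSMB9 window.

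Of the 10 members, 8 were higher in the PRL group and none was lower at an adjusted p under 0.05 in edgeR's quasi-likelihood test. Over all genes tested 62.9% passed, with 32.4% higher and 30.5% lower. At least 2-fold higher were 5 members (PSMB8, TAP1, PSMB9, ERAP1 and ERAP2), beside 10.6% of all genes tested. The median log2 fold change of the members was 0.93, against 0.01 for all genes tested. Summed over the members, the level was 1552 to 1569 TPM in PRL libraries and 666 to 725 TPM in PLVX libraries. The 8 genes did not overlap between groups in CPM, a state that held in the same direction for 35.9% of all genes tested. In bulk RNA, fewer cells of a kind and less RNA per cell cannot be told apart. Scaling shifts all genes together: over all genes the median change was 0.26 (log2) with library totals, 0.20 on FPKM (fragments per kilobase and library size) and 0.39 on TPM. Ratios read from the TPM levels below carry that shift. TMM sets the typical change near 0 (median 0.01), and which scale is the right one was not tested.

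**Figure D2:**
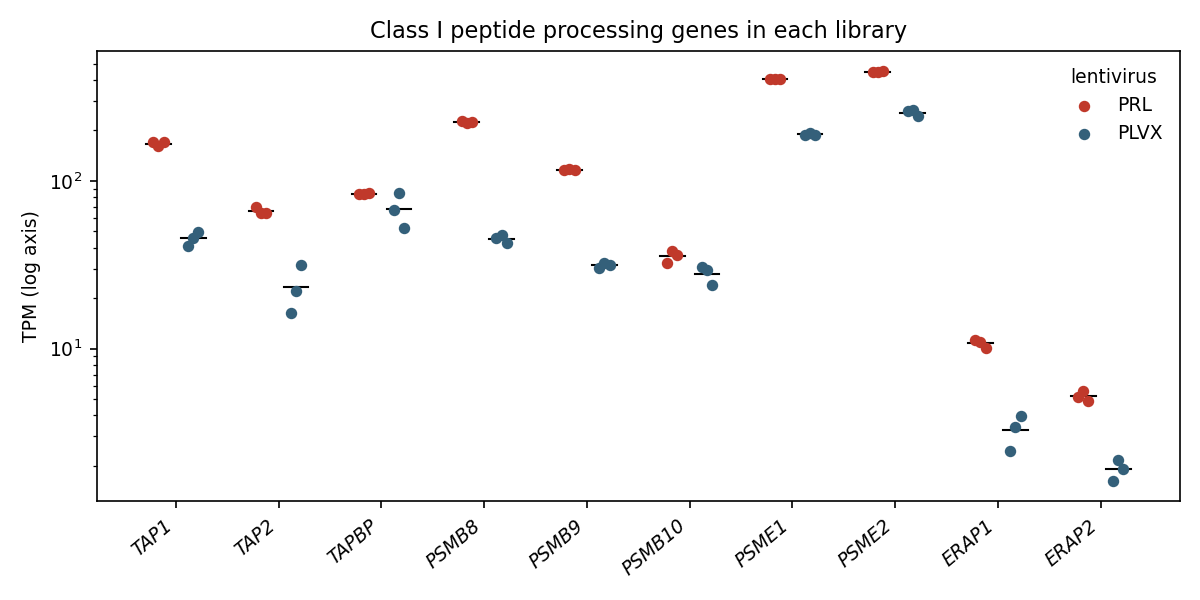
TPM (log axis) of the 10 members in each library, PRL libraries in red and PLVX libraries in blue, with the mean of 3 libraries as a line. The groups are apart, higher in PRL libraries, for 9 genes on this scale, as for 60.9% of all genes with a mean of at least 1 TPM; for TAPBP the PRL libraries at 83.6 to 84.3 TPM lie within the PLVX range of 52.4 to 85.0 TPM.

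TAP1 and TAP2 form the transporter, an ABC family heterodimer that pumps peptides across the membrane of the endoplasmic reticulum. TAP1 had 170.3, 161 and 169 TPM in PRL libraries, against 41.0, 45.8 and 49.7 TPM in PLVX libraries. Its TMM-scaled level was 218 ± 7.10 CPM in PRL libraries and 76.0 ± 4.34 CPM in PLVX libraries (SD, n = 3 each), a log2 fold change of 1.52 with an SE of 0.08 (adjusted p = 1.36e-07 in edgeR), and every PRL library lay above every PLVX library. TAP2 rose less on counts. It had 70.2, 64.2 and 64.1 TPM in PRL libraries, against 16.4, 22.2 and 31.7 TPM in PLVX libraries, with PLVX replicate 3 the nearest to the PRL group. Its log2 fold change was 0.83 with an SE of 0.10 (adjusted p = 4.85e-05 in edgeR), from 115 ± 3.20 CPM in PRL libraries and 64.6 ± 9.17 CPM in PLVX libraries.

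The ratio of TAP1 to TAP2 within a library, in TPM, was 2.42, 2.51 and 2.64 in PRL libraries, against 2.51, 2.06 and 1.57 in PLVX libraries. The ranges overlap in TPM, and the exact two-sided permutation test gave p = 0.2, where 3 libraries against 3 cannot go below 0.1. TAP1 rose more than TAP2 on counts, with log2 fold changes of 1.52 (SE 0.08) and 0.83 (SE 0.10) in edgeR. The TPM ratio also depends on the lengths given below, which differed between groups in opposite directions for TAP1 and TAP2. The overlap in TPM thus does not show that the pair kept its balance, and the ratio on counts was not tested. TAP2 had a TPM ratio (PRL over PLVX) of 2.83 and a fold change of 1.78 on counts. As a factor, that gap was larger than in PSMB9 (3.71 and 2.70) and PSMB10 (1.27 and 0.919). Dividing deposited counts by FPKM and library total gives the length the authors' values imply, which was 3148 ± 14.9 bases in PRL libraries and 3761 ± 371 bases in PLVX libraries for TAP2, with PLVX replicate 3 at 3338 bases. ERAP1 showed the same direction, with 5180.5 ± 52.1 bases in PRL libraries and 5984 ± 136 bases in PLVX libraries. TAP1 went the other way, with 2355 ± 18.2 bases in PRL libraries and 2209 ± 53.3 bases in PLVX libraries. For PSMB9, PSMB10 and PSMB7 this length stayed within 1 base over all libraries. Counts of TAP1, TAP2, TAPBP, ERAP1 and ERAP2 were not whole numbers, whereas those of the other 5 members were whole. GENCODE 29 has exons of other genes over 32.3% of the TAP2 exon bases (same strand) and over 34.75% of those of PSMB10 (same strand), and the antisense RNA gene PSMB8-AS1 over 20.62% of those of PSMB8 and 9.49% of those of TAP1. PSMB8 and PSMB9 share 139 exon bases on opposite strands, and PSMB8-AS1 covers 5.66% of the PSMB9 exon bases on the same strand. How reads were assigned there is not given in the sources used here, so these levels are uncertain to that extent.

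TAPBP encodes tapasin, which tethers class I molecules to TAP and helps select stable peptides. It had 83.6, 83.6 and 84.3 TPM in PRL libraries, against 67.3, 85.0 and 52.4 TPM in PLVX libraries. The PRL libraries were close together and lay inside the PLVX spread. On counts the levels were 151 ± 3.85 CPM in PRL libraries and 167 ± 41.7 CPM in PLVX libraries. The log2 fold change of -0.14 did not pass the test (95% interval -0.48 to 0.20, adjusted p = 0.435 in edgeR), and its sign changed with library totals, FPKM and TPM. Without PLVX replicate 3 it was -0.32 and passed on the lower side (adjusted p = 9.94e-04 in edgeR).

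The catalytic sites of the immunoproteasome are encoded by PSMB8, PSMB9 and PSMB10, which take the places of PSMB5, PSMB6 and PSMB7 when new core particles are assembled. PSMB8 had the largest fold change of the members. It had 226, 221 and 224 TPM in PRL libraries, against 45.6, 47.4 and 42.4 TPM in PLVX libraries, with no overlap. On counts it was 141 ± 2.89 CPM in PRL libraries and 38.6 ± 4.76 CPM in PLVX libraries (log2 fold change 1.88, SE 0.09, adjusted p = 1.26e-07 in edgeR). PSMB9, which shares an upstream region with TAP1, had 116, 118 and 115 TPM in PRL libraries, against 30.2, 32.5 and 31.5 TPM in PLVX libraries. Its log2 fold change was 1.43 with an SE of 0.08 (adjusted p = 4.23e-07 in edgeR), close to that of TAP1. The ratio of TAP1 to PSMB9 was 1.44 ± 0.0602 in PRL libraries and 1.45 ± 0.116 in PLVX libraries (SD of the TPM ratio, n = 3 each), and the ranges overlap.

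PSMB10, the remaining immuno subunit, did not pass on counts. It had 32.3, 38.2 and 36.1 TPM in PRL libraries, against 30.8, 29.4 and 23.9 TPM in PLVX libraries. The PRL libraries are the higher ones in TPM, as they are for 60.9% of the genes with a mean of at least 1 TPM. On counts the groups overlapped, at 18.3 ± 1.86 CPM in PRL libraries and 19.9 ± 4.49 CPM in PLVX libraries. The log2 fold change was -0.12 (95% interval -0.46 to 0.22, adjusted p = 0.503 in edgeR), 0.14 with library totals, 0.06 without PLVX replicate 1, and 0.34 on log2(TPM + 1), where it passed (limma adjusted p = 0.0256). The ratio of PSMB8 to PSMB10 does not depend on scaling between libraries. It was 6.34 ± 0.625 in PRL libraries and 1.62 ± 0.146 in PLVX libraries, and that of PSMB9 to PSMB10 was 3.29 ± 0.263 in PRL libraries and 1.14 ± 0.169 in PLVX libraries (SD, n = 3 each). Both ratios were higher in every PRL library than in every PLVX library (exact permutation p = 0.1 for each, the smallest possible, and 0.138 after Benjamini-Hochberg adjustment over 11 ratios).

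The constitutive counterparts were lower on counts. PSMB5 fell by 0.55, PSMB6 by 1.19 and PSMB7 by 0.82 on the log2 scale (edgeR adjusted p = 2.57e-04, 2.02e-05 and 1.38e-04). PSMB6 had 188 ± 0.678 TPM in PRL libraries and 311 ± 26.1 TPM in PLVX libraries, and PSMB7 575 ± 12.8 TPM in PRL libraries and 735 ± 37.7 TPM in PLVX libraries. PSMB5 had 138 ± 4.21 TPM in PRL libraries and 147 ± 12.9 TPM in PLVX libraries, and its fall did not pass on TPM (limma adjusted p = 0.327 on log2(TPM + 1)).

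Within each pair the immuno share of transcripts could be read in every library, free of scaling between them. PSMB8 made up 62.4%, 62.3% and 61.1% of the summed PSMB8 and PSMB5 TPM in PRL libraries, against 24.8%, 25.2% and 20.8% in PLVX libraries. PSMB9 made up 38.2%, 38.5% and 38.0% of its pair with PSMB6 in PRL libraries, against 8.18%, 9.58% and 9.86% in PLVX libraries. PSMB8 transcript was thus the more abundant of its pair in the PRL group alone, while PSMB6 remained above PSMB9 in all 6 libraries. PSMB10 made up 5.41%, 6.27% and 5.77% of its pair with PSMB7 in PRL libraries, against 3.81%, 3.92% and 3.27% in PLVX libraries. The shares differed by 38.3, 28.998 and 2.15 percentage points, without overlap in any pair (exact permutation p = 0.1 for each, the smallest possible, also 0.1 after adjustment over the 3 pairs). The 6 catalytic genes together stood at 1277 ± 16.7 TPM in PRL libraries and 1298 ± 57.0 TPM in PLVX libraries. Unlike the shares, these sums carry the TPM shift of all genes, and PSMB5, PSMB6 and PSMB7 were lower on counts. Immuno subunits made up 29.4% ± 0.392 of the sum in PRL libraries and 8.06% ± 0.437 in PLVX libraries. These are shares of transcripts, and assembled particles were not measured.

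**Figure D3:**
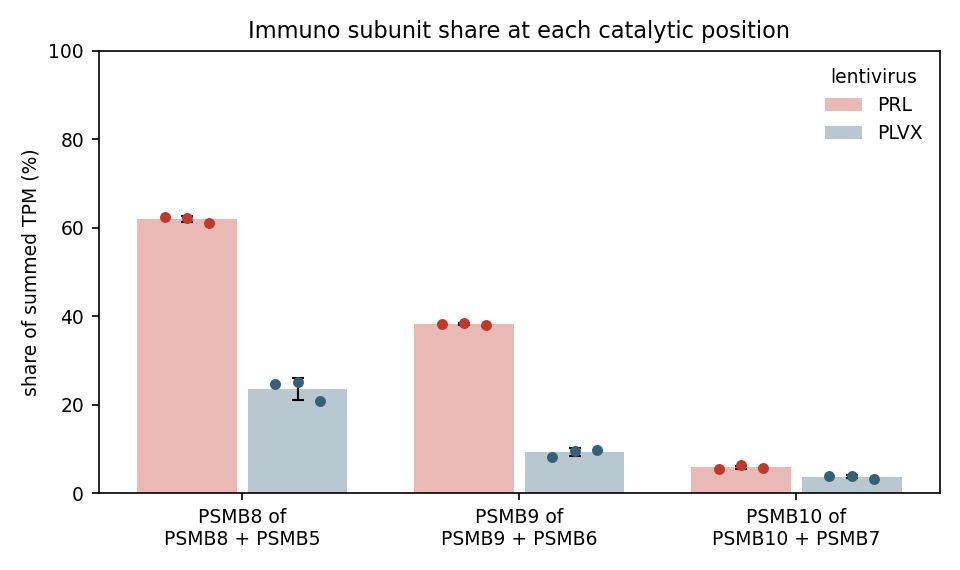
Share (%) of the immuno subunit in the summed TPM of each catalytic pair, PRL libraries in red and PLVX libraries in blue; bars are means, error bars the SD and points the 3 libraries of a group. PSMB8 reaches 61.1% to 62.4% of its pair in PRL libraries and PSMB9 38.0% to 38.5%, whereas PSMB10 reaches at most 6.27% of its pair with PSMB7.

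PSME1 and PSME2 encode the alpha and beta subunits of PA28, a ring that caps the core particle and opens its gate. They were the most abundant members and rose by smaller factors. PSME1 had 406, 406 and 402 TPM in PRL libraries, against 189, 194 and 187 TPM in PLVX libraries, and a log2 fold change of 0.63 with an SE of 0.09 (adjusted p = 1.40e-04 in edgeR). PSME2 had 449, 443 and 450.3 TPM in PRL libraries, against 259.7, 263 and 242 TPM in PLVX libraries, and a log2 fold change of 0.36 with an SE of 0.10 (adjusted p = 0.00823 in edgeR). The ratio of PSME1 to PSME2 was 0.905 ± 0.0121 in PRL libraries and 0.745 ± 0.0230 in PLVX libraries, higher in every PRL library (SD, n = 3 each, exact permutation p = 0.1, the smallest possible, adjusted p = 0.138 over 11 ratios). Of the PSME2 exon bases in GENCODE 29, 6.03% are overlapped by RNF31 on the opposite strand, a gene that rose too (log2 fold change 0.91, adjusted p = 1.58e-05 in edgeR). The use of strand in counting is not given in the sources used here, so reads of the shared bases cannot be told apart.

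Other caps, the inhibitor and the assembly factors of the proteasome were lower on counts. In a list of 8 such genes all 8 fell in edgeR (beside 30.5% of all genes tested), or 5 fell and 1 rose in limma on log2(TPM + 1). The inhibitor gene PSMF1 was the nearest of the 8 to the threshold (log2 fold change -0.20, adjusted p = 0.04996 in edgeR). In TPM it was higher in every PRL library, at 38.4 ± 0.725 TPM in PRL libraries and 32.2 ± 1.48 TPM in PLVX libraries. PSME3, which encodes the nuclear relative PA28-gamma, fell by 0.70 on the log2 scale (adjusted p = 2.15e-05 in edgeR), and PSME4, which encodes the activator PA200, by 0.47 (adjusted p = 4.17e-04 in edgeR), a fall that did not pass on log2(TPM + 1) (limma adjusted p = 0.835). POMP, the maturation chaperone that both kinds of core particle need, fell to 126 ± 5.38 TPM in PRL libraries, against 201 ± 16.8 TPM in PLVX libraries (log2 fold change -1.14, adjusted p = 3.40e-05 in edgeR). PSMG1, an assembly chaperone, fell by 0.75 on the log2 scale (adjusted p = 2.64e-05 in edgeR).

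All 14 constitutive genes of the core particle fell in edgeR, beside 30.5% of all genes tested. The 14 include the alpha ring and the non-catalytic beta subunits that immunoproteasomes also contain. Their median log2 fold change was -0.72, and 10 of them still fell, with none higher, in limma on log2(TPM + 1). PSMA2 and PSMA7, subunits of the alpha ring, had log2 fold changes of -0.97 each (edgeR adjusted p = 2.61e-05 and 2.35e-05).

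ERAP1 and ERAP2 are aminopeptidases of the endoplasmic reticulum that cut residues from the front of peptides. They were the least abundant members, and both rose. ERAP1 had 11.2, 10.97 and 10.1 TPM in PRL libraries, against 2.46, 3.41 and 3.98 TPM in PLVX libraries, and a log2 fold change of 1.06 with an SE of 0.11 (adjusted p = 1.62e-05 in edgeR). ERAP2 had 5.16, 5.63 and 4.87 TPM in PRL libraries, against 1.63, 2.16 and 1.93 TPM in PLVX libraries, and a log2 fold change of 1.02 with an SE of 0.11 (adjusted p = 2.78e-05 in edgeR). Neither gene overlapped between groups. The ratio of ERAP1 to ERAP2 was 1.95 to 2.17 in PRL libraries and 1.51 to 2.06 in PLVX libraries, ranges that overlap.

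Of 9 other peptidases known to act on cytosolic or class I peptides, 2 rose and 5 fell, beside 32.4% and 30.5% of all genes tested. In limma on log2(TPM + 1), 3 of the 9 rose and 2 fell. NPEPPS, the puromycin-sensitive aminopeptidase, was the smaller of the 2 rises, with a log2 fold change of 0.31 (adjusted p = 0.0224 in edgeR). With any PRL library or PLVX replicate 2 left out, 1 of the 9 rose. LAP3, the cytosolic leucine aminopeptidase, rose to 115 ± 4.83 TPM in PRL libraries, against 20.4 ± 3.54 TPM in PLVX libraries (log2 fold change 2.05, SE 0.10, adjusted p = 1.18e-07 in edgeR). THOP1, a cytosolic peptidase known to destroy class I peptides, fell by 0.96 (adjusted p = 1.84e-06 in edgeR), and NRDC, the endopeptidase nardilysin, by 0.66 on the log2 scale (adjusted p = 7.00e-05 in edgeR). LNPEP, the third relative of ERAP1 and ERAP2, lies 15.7 kb beyond ERAP2 and did not pass (log2 fold change -0.18, SE 0.10, adjusted p = 0.125 in edgeR).

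In PRL libraries the order by mean TPM was PSME2 (447), PSME1 (405), PSMB8 (224), TAP1 (167), PSMB9 (116), TAPBP (83.8), TAP2 (66.2), PSMB10 (35.5), ERAP1 (10.8) and ERAP2 (5.22), and no neighbours in it overlapped in their library values. In PLVX libraries PSME2 (255), PSME1 (189.8), TAPBP (68.2), TAP1 (45.5), PSMB8 (45.2), PSMB9 (31.4), PSMB10 (28.0), TAP2 (23.4), ERAP1 (3.28) and ERAP2 (1.91) followed each other. There TAP1 and PSMB8 overlapped, as did PSMB9 with PSMB10 and PSMB10 with TAP2.

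Chaperones that fold class I molecules or complete the loading complex rose in 6 of 8 genes and fell in 2 (beside 32.4% and 30.5% of all genes tested), or in none in limma on log2(TPM + 1). Without PRL replicate 1 or 2, 4 rose, and without PRL replicate 1, 1 fell. HSPA5, the main chaperone of the endoplasmic reticulum, had a log2 fold change of 1.15 and CALR, which encodes calreticulin of the loading complex, of 0.70 (edgeR adjusted p = 2.53e-06 and 6.03e-05). TAPBPL, which encodes the peptide editor TAPBPR, a relative of tapasin, was low in both groups but rose to 2.46 ± 0.321 TPM in PRL libraries, against 0.457 ± 0.247 TPM in PLVX libraries (log2 fold change 2.00, SE 0.29, adjusted p = 1.78e-04 in edgeR). UGGT1, the glucosyltransferase that returns misfolded glycoproteins to the calreticulin cycle, had a log2 fold change of -0.60 (adjusted p = 1.23e-04 in edgeR).

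The class I chains that receive the peptides rose in 7 of 7 genes (beside 32.4% of all genes tested), with a median log2 fold change of 2.15. HLA-F had a log2 fold change of 2.97 and HLA-C of 1.93 (edgeR adjusted p = 1.28e-09 and 3.52e-08). Reads of class I genes can match several of them, which leaves their single values uncertain. Class I chain transcripts amounted to 4.004, 4.02 and 3.94 TPM per TPM of the 10 members in PRL libraries, against 1.45, 1.61 and 1.89 in PLVX libraries, with no overlap.

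**Figure D4:**
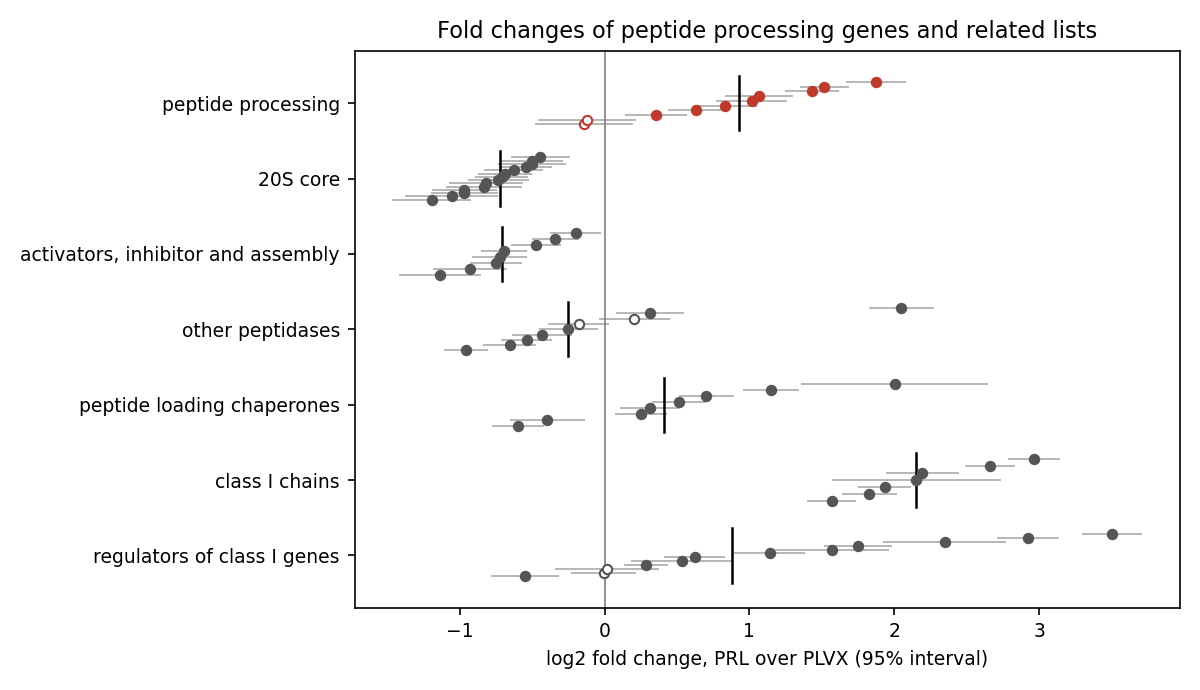
Log2 fold change (PRL over PLVX) of each tested gene of the peptide processing list (red) and of 6 related lists (grey), with 95% intervals from edgeR; filled points passed an adjusted p of 0.05, open points did not, and black bars are list medians. The processing genes, with a median of 0.93, lie between the class I chains at 2.15 and the constitutive core particle genes at -0.72.

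Of 12 known regulators of class I genes, 9 rose, 1 fell and 2 did not pass (32.4% of all genes tested rose and 30.5% fell). IRF9, a DNA-binding factor of the type I interferon response, had a log2 fold change of 2.92, and STAT2, its partner in that response, of 1.75 (edgeR adjusted p = 5.55e-09 and 5.39e-07). NLRC5, the class I transactivator, had 4.13 ± 0.248 TPM in PRL libraries and 0.670 ± 0.234 TPM in PLVX libraries (log2 fold change 2.35, adjusted p = 4.17e-06 in edgeR). IRF1, a transcription factor that interferon-gamma is known to raise, had a log2 fold change of 1.57 (adjusted p = 3.58e-05 in edgeR).

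Leukocytes carry immunoproteasomes at rest, so their markers were read beside these genes. Of 10 leukocyte markers listed, 9 were in the table and 7 were tested, of which 4 rose and 1 fell (beside 32.4% and 30.5% of all genes tested). Their summed level was 146 to 162 TPM in PRL libraries and 26.8 to 35.0 TPM in PLVX libraries, with CD74, which epithelium also makes, at 127 TPM in PRL libraries and 19.7 TPM in PLVX libraries on average. Without CD74 the sum was 26.2 to 28.2 TPM in PRL libraries and 8.93 to 11.8 TPM in PLVX libraries. CD14, a monocyte marker, and CD3E, a T-cell marker, also rose, with at most 19 counts in any library (log2 fold changes 1.30 and 0.97, edgeR adjusted p = 0.0142 and 0.0306). LYZ was the marker that fell, with 18, 36 and 28 counts in PRL libraries, against 52, 45 and 39 in PLVX libraries (log2 fold change -0.94, edgeR adjusted p = 0.0119). CD68 had 16.6 TPM in PRL libraries and 2.90 TPM in PLVX libraries. PTPRC, the pan-leukocyte marker CD45, had 12, 20 and 19 counts in PRL libraries, against 13, 16 and 14 in PLVX libraries, and the B-cell marker MS4A1 had at most 1 count in any library. Markers of dendritic cells and macrophages summed to 1.07 to 1.55 TPM in PRL libraries and 0.56 to 1.81 TPM in PLVX libraries, and those of endothelium to at most 0.34 TPM in any library. Markers of fibroblasts summed to 23.7 to 24.6 TPM in PRL libraries and 11.4 to 16.1 TPM in PLVX libraries. Nearly all of that was COL1A1, at 24.1 TPM in PRL libraries and 12.95 TPM in PLVX libraries on average. COL1A2, COL3A1, DCN and LUM had at most 6 counts in any library and did not pass the filter on low counts. The part of these markers in the results was not tested.

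Under 17 alternatives of scaling, filter, test or libraries, the 8 higher members stayed above 0 and past the threshold. The log2 fold change of TAP2 ranged from 0.76 without a library to 1.55 on TPM, and that of PSME2, the smallest of the 8, from 0.29 without PLVX replicate 3 to 0.81 on TPM. TAPBP and PSMB10 took both signs.

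**Figure D5:**
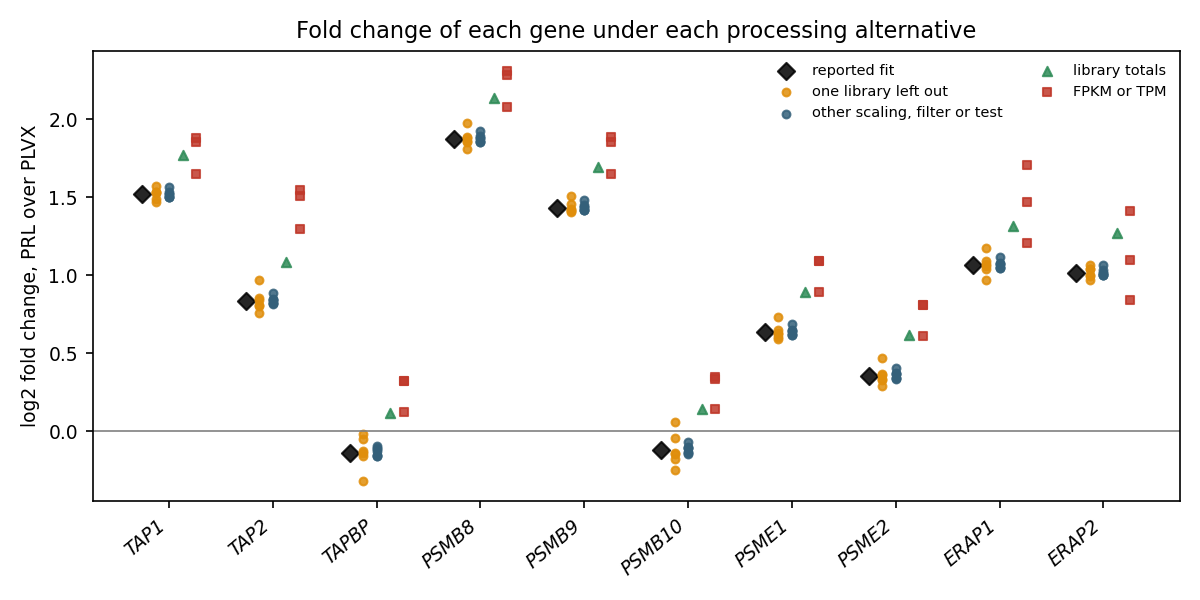
Log2 fold change (PRL over PLVX) of each member in the reported edgeR fit (black diamonds) and under each alternative, by kind. For 8 members every value is above 0; TAPBP and PSMB10 lie on either side of 0, from -0.32 to 0.32 and from -0.25 to 0.35.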

How the data were processed

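The RNA of 6 T47D libraries (3 PRL, 3 PLVX), grouped by title, had been extracted with Trizol. The submitters' processing notes name HISAT2 2.1.0, Bowtie2 2.3.4.3 and GRCh38.p13; counting tool, annotation, RNA selection and strand setting: not given in the sources used here. The authors deposited estimated counts, FPKM and TPM per gene and library, per the file headers; 44.1% to 45.9% of the deposited counts were not whole, and they were rounded. Another 6 columns, with group means by the authors, were left aside.

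Tests used R 4.3.3 and edgeR 4.0.16 (robust quasi-likelihood fit, group as the only term, filter on low counts by group, TMM) over all 14076 tested genes, with Benjamini-Hochberg adjustment and a threshold of 0.05; the SE is the absolute log2 fold change over the root of F. Ratios within a library were tested by exact two-sided permutation. On simulated counts this fit was checked for recovery of known changes. Few genes changed there, in random directions, whereas 62.9% of tested genes passed here, so that check cannot speak for the scaling. The members and lists were chosen with earlier results of these data known, and the promoter motifs after the windows had been read. Named were all members, their counterparts PSMB5, PSMB6, PSMB7, PSME3, PSME4, POMP and TAPBPL, the regulators NLRC5 and IRF1, the 3 members of each other list with the smallest adjusted p unless named already, and overlapping or neighbouring genes. For some of these genes no single value is reported here. List counts and sums still include them. PSMF1 and NPEPPS were named in addition. Alternatives were other scalings, filters, DESeq2 1.42.0, limma-voom and limma 3.58.1 with a trend on log2 FPKM (pseudocount 1) or TPM (pseudocount 1 or 0.1) with a mean of at least 1, the replicate number as a block, and each library left out.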

Additional observations from a re-analysis of the deposited data

How the results depend on the processing

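The 8 higher members kept their direction and call under all 17 alternatives, the largest adjusted p being 0.0381 for PSME2 without PRL replicate 3. TAPBP turned to 0.12 with library totals and on FPKM and to 0.32 on TPM with either pseudocount, and ranged from -0.32 to -0.018 with a library left out. PSMB10 turned to 0.14 with library totals and on FPKM, to 0.34 (pseudocount 1) and 0.35 (0.1) on TPM, and ranged from -0.25 to 0.062 with a library left out. Log2 fold changes on those scales carry the shift of all genes (median 0.26, 0.20 and 0.39). Members called higher numbered 8 or 9, and members called lower 0 to 1 with a library left out; that call was TAPBP without PLVX replicate 3. The PSMB9 share differed by 32.3 points from counts not divided by length, against 28.998 from TPM. Of the 8 activator, inhibitor and assembly genes 5 fell on TPM, against 8. Of the 9 peptidases 3 fell with library totals and on FPKM and 2 on TPM, against 5, and of the 8 chaperones 1, 1 and 0, against 2. Of all changed genes 51.4% were higher, 72.9% with library totals, 69.9% on FPKM and 83.8% on TPM.

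Replicate numbers did not pair the libraries: deviations of same-numbered libraries correlated at -0.11, 0.04 and -0.06. With the replicate block 8531 genes passed, against 8854 without it, and the members' calls were the same. ERAP2 had the lowest counts of the 10 members.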

Other observations

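Genes next to the members did not all move with them; the 2 nearest table genes on each side of each locus were read after the members' values were known. Beside the TAP2 to PSMB9 block, HLA-DOB (log2 fold change 2.17, SE 0.29) and HLA-DMB (1.93, SE 0.31), both of the class II peptide loading system, rose (edgeR adjusted p = 1.00e-04 and 3.19e-04), while HLA-DMA had -0.07 and did not pass (edgeR adjusted p = 0.507). Beside TAPBP, ZBTB22 (0.68) and RGL2 (0.24) rose and PFDN6 fell by 0.31 (edgeR adjusted p = 1.75e-04, 0.0188 and 0.00912), and DAXX had 0.17 and did not pass (edgeR adjusted p = 0.0522). Beside PSMB10, the protease gene CTRL fell by 2.15, LCAT, which encodes the enzyme that esterifies plasma cholesterol, by 1.76 and SLC12A4 by 0.74 (edgeR adjusted p = 3.98e-04, 3.46e-05 and 6.19e-05), and PSKH1 had 0.35 (edgeR adjusted p = 0.0206). CTRL had only 4, 6 and 8 counts in PRL libraries, against 26, 19 and 25 in PLVX libraries. In PLVX libraries HLA-DOB had 6, 6 and 9 counts and HLA-DMB 14, 8 and 18. The fold changes of these genes thus rest on few reads.

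Around PSME1 and PSME2 the directions were mixed. DCAF11 rose by 0.24 on the log2 scale (edgeR adjusted p = 0.0200). EMC9, between them, fell by 0.98 (edgeR adjusted p = 8.88e-05), whereas RNF31, a subunit of the linear ubiquitin ligase, had 0.91 and IRF9, 13483 bases beyond PSME2, had 2.92 (edgeR adjusted p = 1.58e-05 and 5.55e-09). Beside ERAP1, CAST, which encodes the calpain inhibitor calpastatin, had -0.08 and did not pass (edgeR adjusted p = 0.406), and ELL2, a transcription elongation factor gene 798739 bases away, had 1.58 and rose (edgeR adjusted p = 1.61e-06).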
